A study of Mus musculus with 8 samples.

Results

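The EHD proteins and the core genes of caveolae were followed in epididymal white adipose tissue, the visceral fat pad beside the epididymis, in arrays labelled Rev-erb alpha KO and in wild-type (WT) arrays. The 8 genes were Ehd1, Ehd2, Ehd3, Ehd4, Cav1, Cav2, Cav3 and Pacsin2, of 19310 genes measured. Each was taken from the array rows whose platform annotation gives exactly 1 gene symbol, and a gene with several rows would have been represented by the row chosen by its mean brightness over the 8 arrays. All 8 genes had a single row, so brightness decided nothing. The list was drawn up with Ehd3 already known as one of the largest increases in these arrays, so in effect it was selected on the Ehd3 difference, and the values of Ehd3 are therefore a description, with no p-value.

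The study compared 4 arrays labelled as Rev-erb alpha knockouts with 4 WT arrays. Rev-erb alpha is a nuclear receptor of the circadian clock, and its gene is Nr1d1. All samples came from male C57BL/6 mice aged 12 to 15 weeks on a standard diet, housed under cycles of 12 h of light followed by 12 h of darkness. Fat was taken at Zeitgeber time 10 (hours after the lights came on), which the labels put near the daily maximum of the receptor protein in WT. How the knockout allele was made, whether it acts in all tissues and whether each array stands for a separate mouse is not stated in the labels. P-values therefore set a group difference against the spread between these arrays within groups, which may not be the spread between mice.

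EHD proteins are membrane-bound ATPases that form rings on membrane tubules. EHD1, EHD3 and EHD4 work on endosomes and return receptors and lipids to the cell surface, and EHD2 sits at the neck of caveolae and holds them at the plasma membrane. Caveolae are small flask-shaped pits of the plasma membrane, very abundant in adipocytes and endothelial cells. They are built from caveolins in the membrane and cavins around it, and the F-BAR protein PACSIN2 bends the membrane at their neck. Rev-erb alpha represses transcription from DNA that holds the nuclear receptor half-site AGGTCA after an A/T-rich flank, as in the Arntl gene.

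The upstream sequence of Ehd3 is shown because Ehd3 was the member whose level differed most between the groups. Below are 250 bases that end just before the Ehd3 start site, read 5′ to 3′ on the plus strand of GRCm38.p6 at chr17:73804591-73804840, from RefSeq. The capitals mark a TAGGTCA.

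Ehd3 upstream: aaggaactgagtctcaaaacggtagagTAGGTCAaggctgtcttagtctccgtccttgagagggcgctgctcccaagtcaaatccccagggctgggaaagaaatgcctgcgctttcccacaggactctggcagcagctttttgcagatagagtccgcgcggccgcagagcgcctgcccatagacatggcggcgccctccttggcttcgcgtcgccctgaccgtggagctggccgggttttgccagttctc

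The TAGGTCA lies at bases −223 to −217 from the Ehd3 start. Stretches of 30 bases around the same letters in Ehd3 (chr17:73804607-73804636) and in Arntl (chr7:113207530-113207559), a textbook target of Rev-erb alpha, are set side by side, both on the plus strand of GRCm38.p6.

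Ehd3: aaacggtagagTAGGTCAaggctgtcttag
Arntl: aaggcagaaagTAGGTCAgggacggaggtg

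The stretches were aligned on these letters, which both were picked to hold, so their likeness there is no finding. In Arntl the letters lie just after the start of 1 of its transcripts, at bases 31 to 37.

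Motifs were searched on both strands of RefSeq windows from 250 bases before to 50 bases after each transcript start. Of the 8 genes, 7 had a window, with 10 windows in all, and Ehd1 was not matched. The half-site AGGTCA was in 3 member windows, those of Ehd3 and Cav3 and 1 of those of Pacsin2, against 16.3% of all 32851 windows. The longer TAGGTCA, which contains it, was in the Ehd3 window and in no other member window, against 2.61% of all windows. None of the 10 windows held TAGGTCA with AA 1 base before it (0.219% of all windows), AGGTCA repeated after 2 bases (3 windows in all), the E-box CACGTG (7.15%) or the D-box TTATGTAA (0.938%). The form with AA 1 base before TAGGTCA, which the Ehd3 window lacks, is present in Arntl, at bases 28 to 37. A match describes the letters of a window and is no measured binding site.

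Arrays of the series were alike in their overall distribution, with medians of 5.90 to 5.95 log2. The Nr1d1 row, the check on the genotype label, read 9.56, 9.28, 8.90 and 8.80 log2 in the knockout-labelled arrays and 9.47, 9.11, 9.18 and 9.83 in the WT arrays. These values overlap. Which parts of the transcript the row reads, and how the knockout allele alters the gene, is not known. The row therefore settles nothing about the genotype, and the text keeps to the wording knockout-labelled. Arntl, the clock gene that Rev-erb alpha represses, read 6.65 to 6.95 log2 in the knockout-labelled arrays and 4.80 to 5.19 in the WT arrays. As a check on the tissue label, the adipocyte gene Adipoq averaged 12.16 ± 0.09 log2 in the knockout-labelled arrays and 12.20 ± 0.05 in the WT arrays (SD, n = 4 each). This gene speaks for fat in general and not for the depot.

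Of the 8 genes, only Ehd3, which was picked for its increase, lay past an adjusted p of 0.05 in limma's fit across all rows, and 0 were called lower. Over all rows 7.40% were called in either direction, 3.81% higher and 3.59% lower, and because of how Ehd3 was picked its place past the threshold is no test and nothing is read from the count. The other 7 genes had log2 fold changes of −0.19 to 0.11, 2 above 0 and 5 below, with adjusted p-values of 0.121 to 0.750. Their 95% intervals together spanned −0.37 to 0.24 log2. The median over the 8 genes was −0.06 log2, against −0.01 over all rows.

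**Figure D1:**
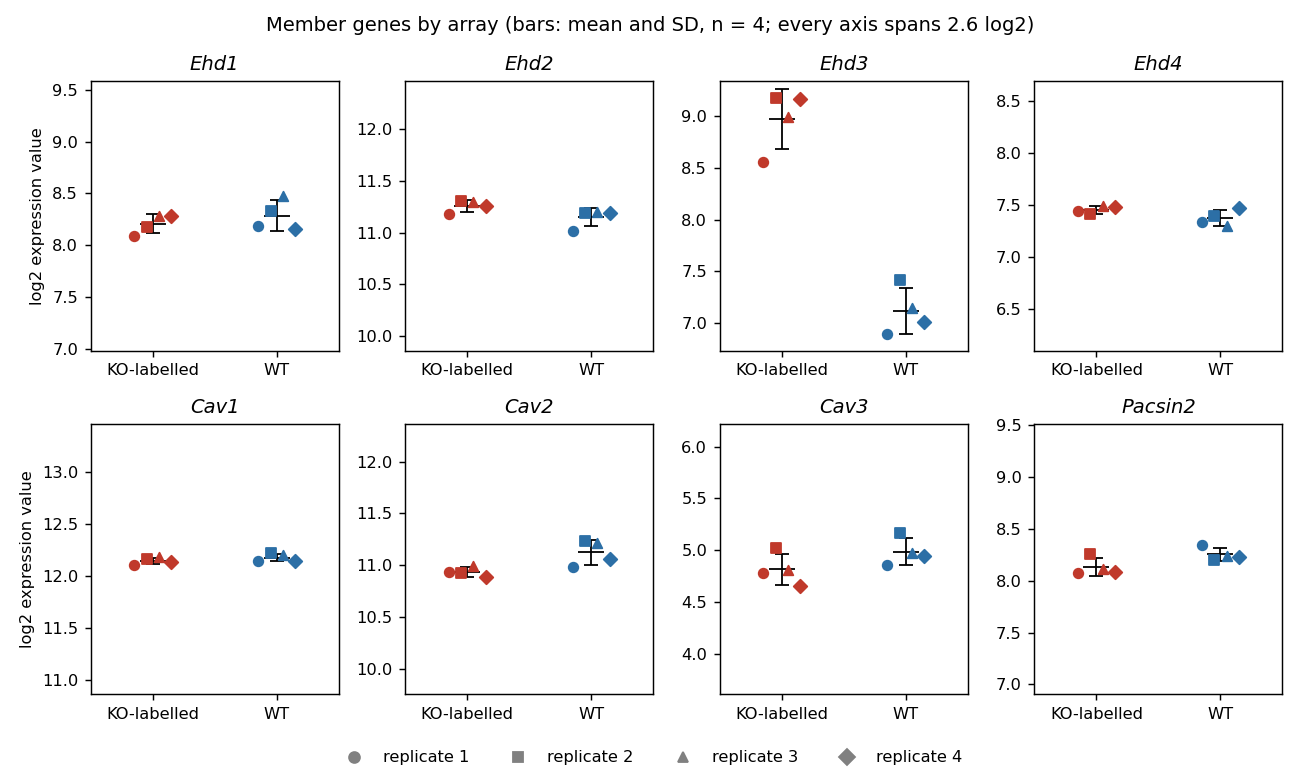
Deposited log2 expression values (vertical axes, each spanning the same width) of the 8 genes in the 4 knockout-labelled arrays (red, left) and the 4 WT arrays (blue, right), with the mean and SD as bars and the marker shape giving the replicate number. The groups are apart for Ehd3, with at least 8.56 in knockout-labelled arrays and at most 7.42 in WT arrays, and overlap for the other 7 genes.

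Among the EHD genes, Ehd3 stood 3.62-fold higher in the knockout-labelled tissue. Ehd3 (row 10446777, chromosome 17), which encodes an ATPase of recycling endosomes, read 8.56, 9.17, 8.99 and 9.16 log2 in the knockout-labelled arrays and 6.90, 7.42, 7.15 and 7.01 in the WT arrays. Every knockout-labelled array lay above every WT array, and a gap of 1.14 log2 parted the lowest of them from the highest WT array. Of all rows, 7.18% had every knockout-labelled array above every WT array. The mean was 8.97 ± 0.29 log2 in the knockout-labelled arrays and 7.12 ± 0.22 in the WT arrays (SD, n = 4 each), a log2 fold change of 1.85 (SE 0.15, 95% interval 1.53 to 2.18). The interval takes no account of how Ehd3 was picked, so it is no test of the difference. By increase it ranked 6 among 20748 rows. Knockout-labelled array 1 was the lowest of its group, and without it the log2 fold change was 1.99.

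Ehd1 (row 10460833, chromosome 19), the closest relative of Ehd3, which drives exit from the recycling endosome, showed no such difference. It read 8.09, 8.17, 8.29 and 8.28 log2 in the knockout-labelled arrays and 8.19, 8.33, 8.48 and 8.16 in the WT arrays. The groups overlapped, and the log2 fold change was −0.08 (SE 0.08, 95% interval −0.25 to 0.10, limma adjusted p = 0.630).

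Ehd2 (row 10560190, chromosome 7), the EHD protein of the caveolar neck, read 11.18, 11.30, 11.29 and 11.25 log2 in the knockout-labelled arrays and 11.02, 11.19, 11.20 and 11.19 in the WT arrays. The lowest value was that of WT array 1, and 1 knockout-labelled array lay within the WT range. Its log2 fold change was 0.11 (SE 0.06, 95% interval −0.02 to 0.24, limma adjusted p = 0.325). Ehd4 (row 10486396, chromosome 2), an endosomal family member, read 7.44, 7.41, 7.49 and 7.48 log2 in the knockout-labelled arrays and 7.34, 7.40, 7.30 and 7.47 in the WT arrays. Both groups lay close together, with a log2 fold change of 0.08 (SE 0.05, 95% interval −0.04 to 0.20, limma adjusted p = 0.466).

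The balance within the family moved with Ehd3. The within-array log2 difference of Ehd3 minus Ehd1 was higher by 1.93 in the knockout-labelled arrays, that of Ehd3 minus Ehd2 by 1.75 and that of Ehd3 minus Ehd4 by 1.78. In all 3 cases the groups did not overlap. The gap of 1.14 log2 in Ehd3 fixed this in advance, because Ehd1, Ehd2 and Ehd4 each varied by far less over the arrays. Such a difference has no meaning as a level, because rows read with unlike brightness, and its shift between groups was not tested, because Ehd3 was chosen for its increase.

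None of the 3 caveolins passed the threshold, and their groups overlapped. Cav1 (row 10536499, chromosome 6), the main caveolin of adipocytes and the protein without which their caveolae do not form, read 12.11, 12.16, 12.18 and 12.13 log2 in the knockout-labelled arrays and 12.15, 12.22, 12.20 and 12.15 in the WT arrays. These 8 values lay close together, and the groups overlapped. The log2 fold change was −0.03 (SE 0.05, 95% interval −0.14 to 0.07, limma adjusted p = 0.750).

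Cav2 (row 10536494, chromosome 6), which joins CAV1 in hetero-oligomers and is its neighbour in the genome, read 10.93, 10.93, 10.998 and 10.88 log2 in the knockout-labelled arrays and 10.98, 11.24, 11.21 and 11.07 in the WT arrays. Knockout-labelled array 3 overlapped WT array 1, and the others lay below all WT arrays. Its log2 fold change of −0.19 (SE 0.07) had a limma adjusted p of 0.121, and its own 95% interval, −0.34 to −0.04, left out 0 before adjustment over all rows. Within arrays, Cav1 minus Cav2 averaged 1.21 ± 0.04 log2 in the knockout-labelled arrays and 1.05 ± 0.09 in the WT arrays (SD, n = 4 each), without overlap, between a lowest knockout-labelled value of 1.17 and a highest WT value of 1.16. This narrow separation was not tested, and 15.3% of all rows had groups that did not overlap.

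Cav3 (row 10540533, chromosome 6), the caveolin of striated muscle, read 4.78, 5.02, 4.81 and 4.66 log2 in the knockout-labelled arrays and 4.86, 5.17, 4.98 and 4.94 in the WT arrays. It was dim in both groups, with ranges that overlap and a log2 fold change of −0.17 (SE 0.09, 95% interval −0.37 to 0.02, limma adjusted p = 0.294). No detection call was used here, so it cannot be said whether this row was above background. Skeletal muscle markers, listed because Cav3 belongs to that tissue, averaged 5.31 to 5.41 log2 per knockout-labelled array and 5.22 to 5.40 per WT array. Of 10 measured, 0 were higher and 1 lower, Actn3, whose call did not hold in 7 of 17 alternative fits (limma adjusted p 0.0518 to 0.0970). Of these 10, 5 lay above 0, with a list median of −0.01 log2 and log2 fold changes from −0.43 to 0.77.

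Pacsin2 (row 10430997, chromosome 15), the F-BAR protein of the caveolar neck, read 8.08, 8.26, 8.11 and 8.09 log2 in the knockout-labelled arrays and 8.34, 8.20, 8.24 and 8.23 in the WT arrays. Knockout-labelled array 2 lay inside the WT range and the other 3 below it. The log2 fold change was −0.12 (SE 0.06, 95% interval −0.25 to 0.01, limma adjusted p = 0.281). Against Cav1 within the same array, the balance of Pacsin2 shifted by −0.09 log2 with overlapping groups, while that of Ehd2 shifted by 0.14 log2 without overlap (−0.93 to −0.86 in knockout-labelled arrays, −1.13 to −0.96 in WT arrays). Over all rows 15.3% had groups that did not overlap, and these differences of 2 rows were not tested.

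Other genes were taken from 5 lists of caveolar, recycling and other lipid raft genes, of which 58 of 62 were measured. Together they are named caveolar and recycling genes below. Of these, 5 rose and 1 fell (limma, adjusted p under 0.05), and the median log2 fold change was −0.01. The share, 6 of 58, stands beside the 7.40% called among all rows. Of the 6, 2 came from the list of 8 other lipid raft genes.

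Of the cavins that coat caveolae, Cavin3, a partner of Cavin1 in the coat, was called higher and the other 3 of 4 were not. Cavin3 read 10.73, 10.95, 11.38 and 11.27 log2 in the knockout-labelled arrays and 10.63, 10.63, 10.54 and 10.62 in the WT arrays. All knockout-labelled arrays lay above the WT arrays, arrays 3 and 4 by more than arrays 1 and 2. Its log2 fold change of 0.48 (SE 0.12) had a limma adjusted p of 0.0417. The call was lost with quantile normalization, with the replicate number as a block, without any 1 of the WT arrays and when knockout-labelled array 3 or array 4 was dropped (adjusted p 0.0556 to 0.116). Cavin1, needed for caveolae to form, had a log2 fold change of −0.01 (95% interval −0.13 to 0.12), Cavin2 of 0.01 (−0.17 to 0.18) and the muscle cavin gene Cavin4 of −0.13 (−0.25 to −0.01, adjusted p = 0.196). Within arrays, Cav1 minus Cavin1 averaged 1.499 ± 0.05 log2 in the knockout-labelled arrays and 1.53 ± 0.06 in the WT arrays (SD, n = 4 each), with overlap.

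Of 11 measured genes that shape the neck or anchor it, Dnm3 and Flna rose and 0 fell. Dnm3, a dynamin, a GTPase that cuts membrane necks, averaged 6.66 ± 0.07 log2 in the knockout-labelled arrays and 6.20 ± 0.07 in the WT arrays (SD, n = 4 each; log2 fold change 0.46, SE 0.06, limma adjusted p = 0.00121). Flna encodes filamin A, which ties caveolae to actin, and averaged 9.79 ± 0.13 log2 in the knockout-labelled arrays and 9.40 ± 0.03 in the WT arrays (log2 fold change 0.39, SE 0.07, limma adjusted p = 0.00709). Both genes had their groups apart. The dynamin gene Dnm1 (0.38, adjusted p = 0.0512) and Ehbp1, whose protein binds EHD1 and EHD2 (−0.24, 0.0654), missed the threshold. Dnm1 passed in 7 of 17 alternative fits and Ehbp1 in 3.

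None of the 22 measured recycling partners of EHD proteins was called, and their median was −0.03 log2. The 4 with the smallest p were Tfrc, the transferrin receptor and classic cargo of the recycling endosome (−0.56, SE 0.15, limma adjusted p = 0.0511), the RAB11 effector Rab11fip5 (0.20, 0.0602), the endocytic adaptor Numb (−0.17, 0.141) and the GTPase Arf6 (−0.14, 0.146). Tfrc read 5.54, 5.60, 6.30 and 6.03 log2 in the knockout-labelled arrays and 6.51, 6.35, 6.30 and 6.53 in the WT arrays. Only knockout-labelled array 3 reached the WT range, and without that array Tfrc was called, at −0.70 log2. It was also called with array weights, with the dimmest rows left out, with rows of 1 gene averaged and at a threshold of 0.10. Rab11fip5 passed in 4 of 17 alternative fits.

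Among 8 other lipid raft genes, Cd59a and Stom rose, 0 fell, and the median was 0.25 log2. Cd59a, a GPI-anchored inhibitor of complement, averaged 10.89 ± 0.09 log2 in the knockout-labelled arrays and 10.42 ± 0.04 in the WT arrays (SD, n = 4 each; log2 fold change 0.47, SE 0.06, limma adjusted p = 0.00116). Stom encodes the raft scaffold stomatin and averaged 8.81 ± 0.13 log2 in the knockout-labelled arrays and 8.48 ± 0.09 in the WT arrays (log2 fold change 0.33, SE 0.07, adjusted p = 0.0251). Its call was lost with the replicate number as a block and when WT array 1, WT array 4 or knockout-labelled array 1 or 3 was dropped (adjusted p 0.0507 to 0.0686). Thy1, a GPI-anchored protein of stromal cells (0.52, adjusted p = 0.0711), and the proteoglycan gene Gpc1 (0.26, 0.0972) did not pass.

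Of 13 measured signalling and cargo genes of caveolae, Irs1 fell and 0 rose, with a median of −0.15 log2. Irs1, the adaptor that passes on the signal of the insulin receptor, averaged 7.74 ± 0.26 log2 in the knockout-labelled arrays and 8.58 ± 0.28 in the WT arrays (SD, n = 4 each; log2 fold change −0.84, SE 0.15, limma adjusted p = 0.00858). The groups did not overlap. The channel gene Kcnma1 (−0.18, adjusted p = 0.0672), the kinase gene Fyn (0.33, 0.111) and Nos3, the endothelial nitric oxide synthase that CAV1 binds (−0.29, 0.124), did not pass.

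**Figure D2:**
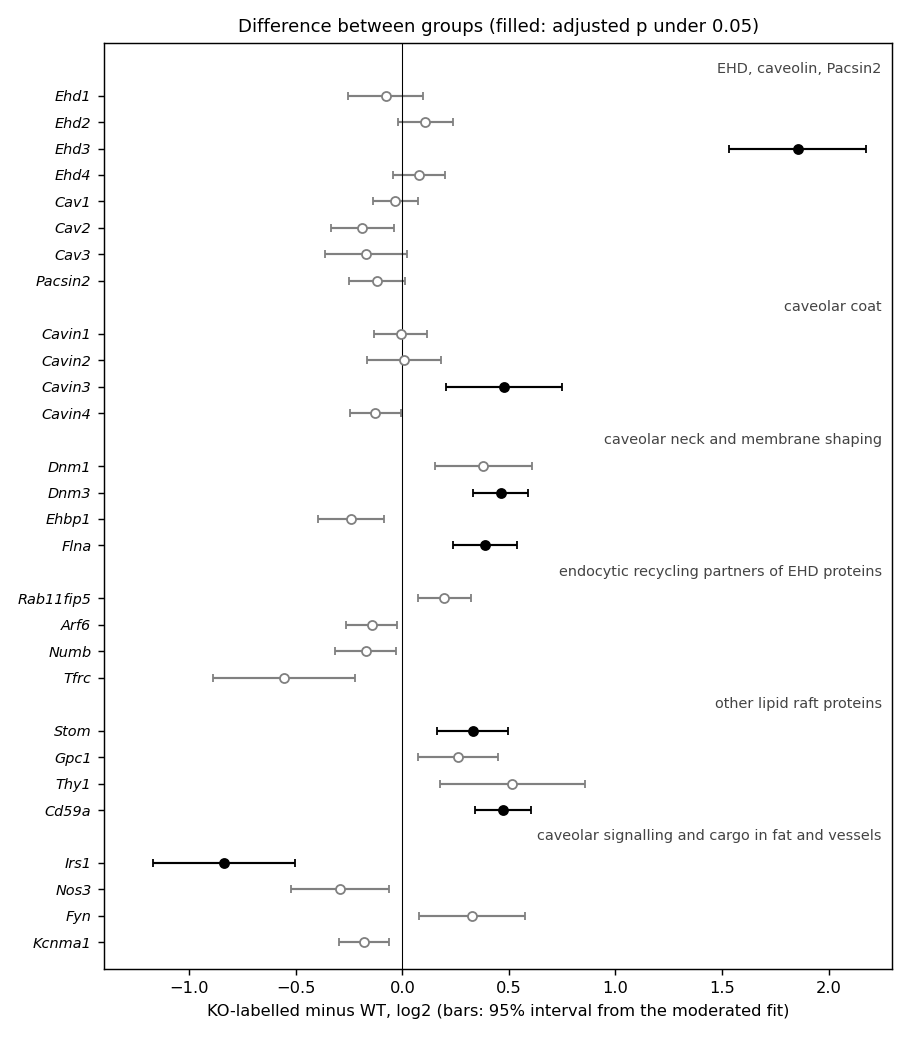
Log2 fold change, knockout-labelled minus WT (horizontal axis), of the 8 genes and of the named genes of the 5 pathway lists other than Dnm2. Bars are 95% intervals from limma's moderated fit over 4 arrays per group, and filled points have an adjusted p under 0.05 over all rows. Ehd3 lies at 1.85, and the other 27 genes lie between −0.84 for Irs1 and 0.52 for Thy1. The interval and the filled point of Ehd3 are no test, because Ehd3 was picked for its increase.

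The 5 genes outside the list that are named here had profiles nearest to that of Ehd3, each row taken as its deviation from its own WT mean and compared over the 8 arrays by the root mean square difference. They were Zdhhc2, a palmitoyltransferase (0.26 log2), Arntl (0.27), the cofactor gene Vgll3 (0.30), Asb12, an ankyrin repeat and SOCS box gene (0.30), and the amino acid transporter gene Slc7a8 (0.32), of 19302 genes compared. Their log2 fold changes lay between 1.57 and 1.93, so a difference of similar size weighs heavily in this measure. Within the knockout-labelled group the genes differed in order. Ehd3, Vgll3 and Asb12 were lowest in array 1, Arntl and Zdhhc2 in array 2, and Slc7a8 in array 4.

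**Figure D3:**
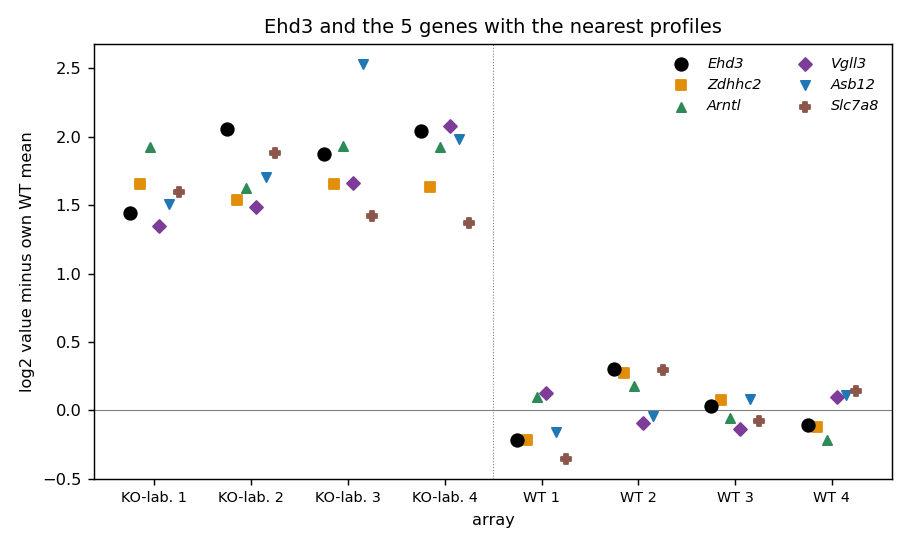
Deviation from the own WT mean (vertical axis, log2) of Ehd3 (black) and its 5 nearest genes in each of the 8 arrays, knockout-labelled arrays on the left of the dotted line. Points of the knockout-labelled arrays all lie above those of the WT arrays, and the order of the genes differs from array to array. The 5 genes were picked for their nearness to Ehd3, so this separation is no finding.

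In a whole fat pad, a change in the share of a cell type and a change in RNA per cell cannot be told apart, so markers are given beside these results. Of 13 measured endothelial markers, 2 were higher and 0 lower, and their mean per array was 8.32 to 8.44 log2 in the knockout-labelled group and 8.12 to 8.31 in the WT group. These were the tight junction gene Cldn5 (0.99, SE 0.12) and Pecam1 (0.20, SE 0.05), the second of which lost its call in 9 of 17 alternative fits (limma adjusted p 0.0724 to 0.112). Progenitor and fibroblast markers had 5 of 10 higher and 0 lower, with a mean per array of 8.68 to 8.88 log2 in the knockout-labelled group and 8.21 to 8.57 in the WT group. The called ones were Mfap5 (0.84), Col1a1 (0.71), Cd55 (0.56), Pi16 (0.40) and Col3a1 (0.27), and the calls of Cd55, Pi16 and Col3a1 were lost in 5, 6 and 8 of 17 alternative fits (limma adjusted p 0.0510 to 0.0997).

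Mature adipocyte markers had 2 of 13 higher, Lep (0.75) and Aqp7 (0.39), and 1 lower, Cebpa (−0.37), with a mean per array of 11.83 to 11.87 log2 in the knockout-labelled group and 11.74 to 11.87 in the WT group. Smooth muscle and pericyte markers had Acta2 (0.89) and Rgs5 (0.66) higher and Tagln (−0.29) lower, of 11, with means of 7.19 to 7.43 log2 in the knockout-labelled group and 7.09 to 7.23 in the WT group. Only 5 of these 11 lay above 0, and the list median was −0.01 log2. The Tagln call was lost in 8 of 17 alternative fits (limma adjusted p 0.0574 to 0.102). Of 9 mesothelial markers Msln (0.60) and Efemp1 (0.29) were called higher, while 7 did not pass and only 3 of the 9 lay above 0 (list median −0.19 log2), at means of 8.55 to 8.70 log2 in the knockout-labelled group and 8.56 to 8.84 in the WT group, and Efemp1 lost its call in 6 of 17 fits (0.0523 to 0.0732). Of 9 macrophage markers Cd14 was called lower (−0.38), while the other 8 lay above 0 without passing (list median 0.10 log2), at means of 8.05 to 8.38 log2 in the knockout-labelled group and 7.83 to 8.30 in the WT group. Epididymal epithelium, the neighbouring organ, gave 0 called of 5 measured and dim means of 3.62 to 3.66 log2 in the knockout-labelled group and 3.65 to 3.77 in the WT group. Of the cell type lists, only the endothelial and the progenitor means parted the groups without overlap, as 15.3% of all rows did. The endothelial gap was narrow, with a lowest knockout-labelled mean of 8.32 log2 and a highest WT mean of 8.31. That list had a median of 0.11 log2, with Cldn5 far above it at 0.99. The part of both lists in the values of Ehd3, Cavin3 and the other genes above was not tested.

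**Figure D4:**
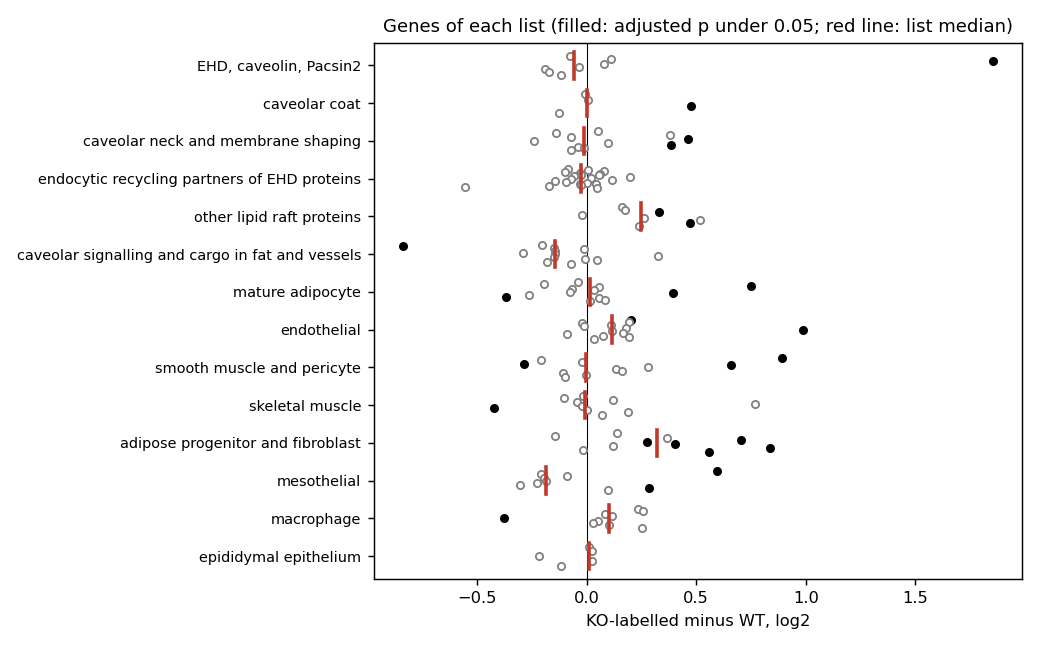
Log2 fold change, knockout-labelled minus WT (horizontal axis), of each measured gene of the member list, the 5 pathway lists and the 8 cell type lists (rows), with filled points at an adjusted p under 0.05 and a red line at the list median. Medians lie at −0.06 for the 8 members, 0.25 for the other lipid raft genes and 0.32 for the progenitor and fibroblast markers.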

How the data were processed

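The authors deposited log2 expression values for each row of an Affymetrix mouse array that reads along whole transcripts. The submitters' processing notes name affy. Background correction, normalization and summarization steps are not stated in those notes or the labels, and the log2 scale was read from the values (2.09 to 13.4). The platform annotation gave exactly 1 symbol to 20748 of 23346 rows, and only these were tested. Gene symbols of the 8 members matched the RefSeq table by Entrez identifier.

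Knockout-labelled and WT arrays, 4 each, were compared by limma (version 3.58.1, R 4.3.3; functions lmFit and eBayes, default settings, 2-group design, no filter). P-values were two-sided and Benjamini-Hochberg adjusted over all tested rows. A log2 fold change is knockout-labelled minus WT, and intervals are 95% and unadjusted. The fit was tested on simulated data. The array number, 4 per group, limits precision.

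Named were all 8 members, called genes or the 4 with the smallest p in each pathway list, called cell type markers, 5 genes nearest to Ehd3, Nr1d1 and Arntl. Adipoq was added as a tissue check and Dnm2 beside the other dynamin genes, both outside the 53 genes examined for outlying arrays. Members and lists were chosen with earlier results of these data known. Replicate numbers did not pair the arrays. Alternatives were quantile normalization, median centring, leaving out the dimmest 33.3% of rows, all rows, trend and robust eBayes, array weights, the replicate block, each array left out, an adjusted p under 0.10 and the mean of a gene's rows.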

Additional observations from a re-analysis of the deposited data

Results flagged for a closer look

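Within groups of 4 arrays, 6 of 106 groups examined for the 53 named genes held an array far from the other 3 by Dixon's ratio, about as many as the 1 in 20 that chance gives. One concerned a member. Ehd2 read 11.02 log2 in WT array 1, below the other WT arrays, of which the nearest read 11.19. Among the cavins, Cavin3 read 10.54 in WT array 3 against 10.62 for the nearest WT array, and Cavin4 read 5.04 in WT array 2 against 5.17. Knockout-labelled array 2 stood apart for 3 genes, with 6.08 against 5.74 for Actn3, 6.65 against 6.94 for Arntl and 7.50 against 7.60 for Zdhhc2.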

How the results depend on the processing

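The 7 members other than Ehd3 stayed short of the threshold under all alternatives that gave them a value, 17 for each and 16 for Cav3, which is among the dimmest 33.3% of rows. Cav2 came nearest, with a limma adjusted p of 0.0611 with quantile normalization and 0.0652 without WT array 1. The threshold of 0.10 was applied to the main fit only. The direction of these 7 members also held, but several alternatives could not change it. The choice of rows, the trend and robust eBayes, the replicate block, the threshold of 0.10 and the mean of a gene's rows leave the log2 fold change of a single-row gene as it is. The log2 fold change of Ehd3, given as a description, lay between 1.78 and 1.99. With the replicate block, 4 caveolar and recycling genes outside the member list were called, against 6, and over all rows 1105 were called, against 1536. Of the members only Ehd3 passed there, which is no test because Ehd3 was picked for its increase. Deviations of same-numbered arrays correlated at −0.07 to 0.13, so the block was not taken as a pairing. Each replicate number occurs once per group, so the block leaves every log2 fold change as it is and could turn no gene round. The 6 caveolar and recycling genes called became 10 with those dim rows left out, where fewer rows are tested, 13 at an adjusted p under 0.10, and 4 to 9 with 1 array left out. Called rows numbered 2552 at an adjusted p under 0.10 and 913 to 1418 with 1 array left out (972 and 1004 without WT array 3 and WT array 4, 913 without knockout-labelled array 4). The 1536 rows called without any alternative split into 791 higher and 745 lower, against 955 and 574 after median centring. Directions near 0 turned for Cavin1 (0.0144 with median centring, 0.000518 with array weights, −0.0280 to 0.0260 with 1 array left out) and Cavin2 (−0.00632 with quantile normalization, −0.0439 to 0.0546 with 1 array left out), and the cause was not tested. Without scanner intensities, dim rows such as that of Cav3 have no bound for their background.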

Other observations

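The nearest measured protein-coding genes on both sides of each member, by the gene order of GRCm38.p6, gave 28 further genes, of which 2 were called, against 7.40% of all rows, a share close to that background. All 4 around Ehd3 were not called: Galnt14, a glycosyltransferase gene, at −0.12 log2 (limma adjusted p = 0.622), Xdh, which encodes xanthine dehydrogenase, at 0.10 (0.456), the calpain gene Capn13 at 0.13 (0.154) and Memo1 at 0.09 (0.671). Oxtr, the oxytocin receptor gene beside Cav3, read 8.26, 9.08, 9.44 and 9.76 log2 in the knockout-labelled arrays and 7.50, 8.28, 8.35 and 7.05 in the WT arrays. The lowest knockout-labelled array lay below the 2 highest WT arrays, and the log2 fold change was 1.34 (SE 0.34, adjusted p = 0.0415). This call was lost in 7 of 17 alternative fits (adjusted p 0.0502 to 0.112), among them those without WT array 1, 2 or 4 or knockout-labelled array 2, 3 or 4. Selenow, a selenoprotein gene near Ehd2, averaged 10.67 ± 0.06 log2 in the knockout-labelled arrays and 10.29 ± 0.06 in the WT arrays (SD, n = 4 each), a log2 fold change of 0.38 (SE 0.05, adjusted p = 0.00259) that kept its call in all 17. Oxtr and Selenow are named because they were called, after their values were seen.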
